A study of Homo sapiens with 6 samples.

Results

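The genes described here encode the cadherins, claudins and other proteins of the junctions between epithelial cells. They were chosen by symbol, with earlier results of these data known, as the cadherins, protocadherins, FAT, Dachsous and CELSR cadherins, claudins, the other membrane and scaffold proteins of tight junctions, nectins and afadin, desmosomal genes, *PARD3*, the *PARD6* genes and *CRB3*, connexins and *EPCAM*. They number 78 of the 14646 genes in the count table, and 71 of these were among the 13791 genes with enough reads to be tested. RNA was sequenced from GDC0032-resistant cells (IGROV1Res, 3 libraries) and from GDC0032-sensitive cells (IGROV1Sen, 3 libraries) of IGROV1, an ovarian cancer line with mutated *PIK3CA*. GDC0032 (taselisib) inhibits PI3K and spares its beta isoform, and IGROV1Res was made from the parental line by months of culture in rising concentrations of it. IGROV1Res is thus 1 derived line, and resistance and what else sets this line apart cannot be told apart. The labels add the letters UT to both groups with no explanation of them, while the study's methods describe a short exposure to GDC0032 or to DMSO, its vehicle, before RNA was taken. Whether these libraries came from cells under drug, under vehicle or under neither is thus not settled, and this bears on every value. Whether replicates were separate cultures is not labelled either, and p-values may then rest on technical spread between libraries.

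Epithelial cells are held together by several kinds of junction. Adherens junctions are built on classical cadherins, whose tails bind catenins and through them actin, and on nectins, which bind afadin. Desmosomes use the desmosomal cadherins, plakoglobin, plakophilins and desmoplakin to reach intermediate filaments. Tight junctions seal the space between cells with claudins, occludin and their relatives on ZO and cingulin scaffolds, and gap junctions are channels made of connexins. Protocadherins are relatives of the cadherins that do not bind catenins, and many are best known from neurons. In ovarian carcinoma CLDN3, CLDN4 and EPCAM are known for their high levels.

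The libraries held 13809141 to 14179886 counts in IGROV1Res and 12808922 to 15241394 counts in IGROV1Sen, and levels are given as CPM, the usual unit of counts relative to the library size, scaled by TMM (trimmed mean of M-values). In a library, 3 counts stood for 0.198 to 0.236 CPM, which is the level that a count of 0 allows for counting error only. Mitochondrially encoded genes took 6.94% to 12.76% of counts in IGROV1Res and 7.02% to 12.6% in IGROV1Sen, with the lowest shares in IGROV1Res library 3 and IGROV1Sen library 1. IGROV1Sen libraries 2 and 3 were close, with a chi-square of 1.47 per degree of freedom over genes, against 11.9 to 32.7 for the other pairs of replicates. *PAX8*, a marker of Müllerian epithelium, averaged 819 ± 125 CPM in IGROV1Res and 832 ± 84.4 CPM in IGROV1Sen (SD, n = 3 each). Of the listed markers of ovarian epithelial cancer, 6 of 9 were in the table and summed to 2005 to 2404 CPM in IGROV1Res and 1370 to 1515 CPM in IGROV1Sen. The difference lay mostly in *KRT18*, with 1063 ± 132 CPM in IGROV1Res and 295 ± 45.8 CPM in IGROV1Sen. In the same order, *KRT8* averaged 53.8 and 7.94 CPM, *EPCAM* 1.93 and 0.73 CPM and *KRT7* 0.85 and 0.12 CPM. *KRT19* went the other way, with 282 and 320 CPM, and was not called. None of 8 blood markers was in the table, and 5 of 8 fibroblast markers summed to 33.8 to 50.3 CPM in IGROV1Res and 25.6 to 28.7 CPM in IGROV1Sen, where 2 of the 5 were at 3 counts or fewer in each library. In the order IGROV1Res and IGROV1Sen, *PDGFRB* (27.0 and 8.46 CPM) and *LUM* (1.64 and 0.03 CPM) were called higher. *LUM* had enough reads only in IGROV1Res. *COL1A1* (7.70 and 13.7 CPM) was called lower, *PDGFRA* was not called and *COL1A2* was not tested. Only 3 of 7 endothelial markers were in the table, 1 of them *CDH5* itself, and they summed to 224 to 227 CPM in IGROV1Res and 171 to 207 CPM in IGROV1Sen. The part of other cells or of RNA quality in the results was not tested.

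The comparison used the quasi-likelihood test of edgeR, with p-values adjusted by the Benjamini-Hochberg method over all tested genes and with calls made below an adjusted p of 0.05. Every log2 fold change is that of IGROV1Res over IGROV1Sen, with its standard error (SE). Of the 71 tested junction genes, 15 were called higher and 22 lower in IGROV1Res, which is 21.1% and 31.0%, and the other 34 were not called. Over all tested genes, 17.4% were called higher and 18.3% lower. The calls of each role below stand beside these shares. Without the clustered protocadherins of chromosome 5, 51 junction genes were tested, of which 15 were called higher (29.4%) and 12 lower (23.5%). Changes of at least 1 on the log2 scale that were also called were found in 23 junction genes (32.4%), against 10.4% of all tested genes. No IGROV1Res library fell among the IGROV1Sen libraries, or the reverse, in 48 of the 71 (67.6%), against 47.8% of all tested genes. The median log2 fold change was -0.17 and the range ran from -2.84 to 3.82, while the median of all tested genes was -0.01.

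The filter on low counts bears on these numbers. *FAT2* and *MARVELD3*, called higher, and *FAT4* and *PCDH17*, called lower, passed it only through the group in which they were high, so that they could hardly have failed to differ. The 7 genes that did not pass were *CLDN11*, *DSC2*, *MARVELD2*, *PCDHGA11*, *PCDHGA6*, *PCDHGB2* and *PCDHGB3*. *CDH2*, *CDH3*, *CDH6* and *CDH11* were not analysed here.

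**Figure D1:**
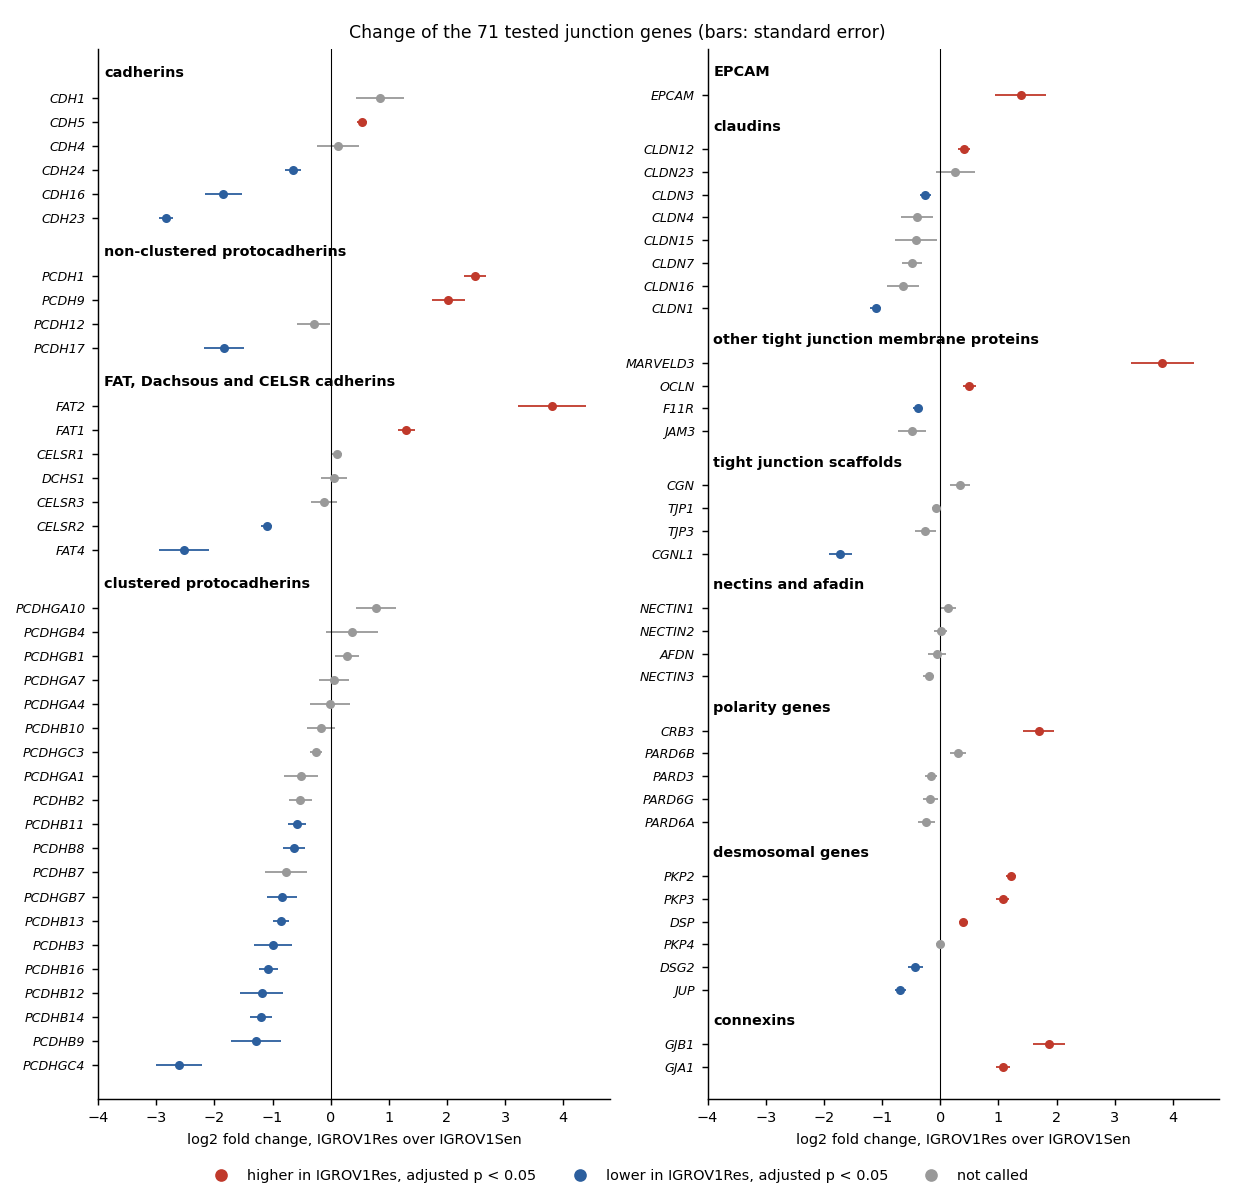
Log2 fold change of IGROV1Res over IGROV1Sen (x axis) for the 71 tested junction genes, grouped by role, with bars of 1 standard error and with colour for the call at an adjusted p under 0.05. The clustered protocadherins include 10 genes called lower and none called higher, both connexins were called higher, and most other roles hold genes called in either direction.

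Among the 6 cadherins described here, 1 was called higher, 3 lower and 2 were not called. *CDH23*, the cadherin of hair cell tip links (chr10:71396934-71815947, GRCh38), stood at 15.6, 17.3 and 14.4 CPM in IGROV1Res libraries 1 to 3, against 95.7, 123 and 119 CPM in IGROV1Sen libraries 1 to 3. Every IGROV1Res value was thus far below every IGROV1Sen value, and *CDH23* fell by 2.84 on the log2 scale (SE 0.12, edgeR adjusted p = 6.91e-07), the lowest fold change of the tested junction genes. In GENCODE, 18.9% of its exon length is shared with a gene on the opposite strand, and reads of the pair cannot be told apart where strand was not used, which the sources used here do not state.

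*CDH5*, the cadherin of endothelial junctions known as VE-cadherin (chr16:66366622-66404786), had 165, 168 and 162 CPM in IGROV1Res, against 127, 106 and 107 CPM in IGROV1Sen. The groups did not overlap, and the gene rose by 0.54 on the log2 scale (SE 0.09, edgeR adjusted p = 0.00146). Of the other endothelial markers in the table, *EGFL7* was lower (48.9 ± 3.37 CPM in IGROV1Res against 59.7 ± 4.50 CPM in IGROV1Sen, log2 fold change -0.29, edgeR adjusted p = 0.0355). *VWF* had 13.4, 8.97 and 12.4 CPM in IGROV1Res, against 14.9, 7.66 and 7.36 CPM in IGROV1Sen, with overlap and no call (log2 fold change 0.22, SE 0.28, edgeR adjusted p = 0.571). On the same chromosome, 503 kb away, lies *CDH16*, first known as the kidney-specific cadherin. It had 1.32, 1.12 and 0.84 CPM in IGROV1Res, against 2.59, 4.16 and 5.04 CPM in IGROV1Sen, a fall by 1.85 (SE 0.32, edgeR adjusted p = 0.00181). *CDH24*, a cadherin that binds catenins, averaged 26.5 ± 3.34 CPM in IGROV1Res and 41.6 ± 6.66 CPM in IGROV1Sen and fell by 0.65 on the log2 scale (SE 0.14, edgeR adjusted p = 0.00619).

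*CDH1*, which encodes E-cadherin, the classical cadherin of epithelia, was rare in both groups. It had 1.46, 1.26 and 0.63 CPM in IGROV1Res, against 0.55, 0.79 and 0.49 CPM in IGROV1Sen, and the groups overlapped because IGROV1Res library 3 lay below IGROV1Sen library 2. Its log2 fold change was 0.85 (95% interval -0.07 to 1.76, edgeR adjusted p = 0.136), so that no difference was detectable at this depth. *CDH4*, or R-cadherin, had 0.78 ± 0.17 CPM in IGROV1Res and 0.72 ± 0.17 CPM in IGROV1Sen and was not called either.

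Because longer transcripts collect more reads, the genes of a role were set against each other as CPM per kb of exon. On that scale *CDH5* made up 76.2 ± 2.11% of the summed level of the 6 cadherins described here in IGROV1Res and 50.4 ± 6.56% in IGROV1Sen. It led these 6 in every library. *CDH2*, *CDH3*, *CDH6* and *CDH11* were not analysed and are in neither the sum nor the shares. *CDH23* took 2.38 ± 0.14% in IGROV1Res and 16.3 ± 1.75% in IGROV1Sen, *CDH24* took 19.8 ± 1.75% in IGROV1Res and 29.9 ± 4.08% in IGROV1Sen, and *CDH1* took 0.50% in IGROV1Res and 0.27% in IGROV1Sen. The summed level of these 6 differed little, at 35.6 ± 1.46 CPM per kb in IGROV1Res and 37.1 ± 0.95 CPM per kb in IGROV1Sen.

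The non-clustered protocadherins, which stand alone in the genome, moved in both directions. *PCDH1*, known from the airway epithelium (chr5:141853111-141879246), had 213, 138 and 131 CPM in IGROV1Res, against 26.9, 31.4 and 28.0 CPM in IGROV1Sen. IGROV1Res library 1 was the highest, the lowest IGROV1Res value was still well above the highest IGROV1Sen value, and *PCDH1* rose by 2.48 on the log2 scale (SE 0.18, edgeR adjusted p = 1.35e-05). *PCDH9*, a neural adhesion gene, had 12.3, 6.58 and 7.15 CPM in IGROV1Res, against 1.81, 2.44 and 2.10 CPM in IGROV1Sen, again with IGROV1Res library 1 on top. It rose by 2.02 (SE 0.29, edgeR adjusted p = 0.000613). *PCDH17*, another neural protocadherin, had 0.51, 0.35 and 0.56 CPM in IGROV1Res, against 2.04, 1.85 and 1.26 CPM in IGROV1Sen, and fell by 1.84 (SE 0.35, edgeR adjusted p = 0.00318). *PCDH12*, a protocadherin of vascular endothelium that lies 64.3 kb from *PCDH1*, was at 0.95 ± 0.10 CPM in IGROV1Res and 1.16 ± 0.10 CPM in IGROV1Sen and was not called. Per kb of exon, *PCDH1* made up 98.3 ± 0.11% of the summed level of this role in IGROV1Res and 91.6 ± 1.09% in IGROV1Sen.

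The clustered protocadherins lie in tandem arrays on chromosome 5. Each *PCDHB* gene has its coding sequence in 1 exon behind its own promoter, while *PCDHG* genes splice their own first exon to last exons that they share. Promoters of these arrays are known to carry a conserved element that CTCF can bind. To show what the promoters of the *PCDHB* members have in common, the stretch before the transcription start is printed from RefSeq (GRCh38.p14, plus strand). It is cut where an exon begins in GENCODE, and capitals mark a run of letters that these stretches share. *PCDHB13*, *PCDHB12* and *PCDHB9* are shown as members called lower, and *PCDHB10* as one that was not called. They come from chr5:141213789-141213918, chr5:141208589-141208696, chr5:141187031-141187126 and chr5:141192223-141192352.
PCDHB13: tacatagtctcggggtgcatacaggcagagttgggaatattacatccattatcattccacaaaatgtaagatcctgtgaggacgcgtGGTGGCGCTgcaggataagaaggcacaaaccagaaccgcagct
PCDHB12: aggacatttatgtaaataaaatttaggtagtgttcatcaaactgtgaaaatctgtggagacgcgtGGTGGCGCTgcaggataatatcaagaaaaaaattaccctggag
PCDHB9: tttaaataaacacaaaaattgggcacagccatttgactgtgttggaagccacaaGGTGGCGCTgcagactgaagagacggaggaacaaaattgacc
PCDHB10: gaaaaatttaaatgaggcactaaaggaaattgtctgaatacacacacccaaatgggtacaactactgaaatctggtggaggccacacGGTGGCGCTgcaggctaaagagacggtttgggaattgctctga

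The run GGTGGCGCT was read off these same promoters and then searched on both strands, its reverse complement being AGCGCCACC. In each printed stretch the letters gcag follow the run, and they were not part of the search. In the 250 bases before the start it was found in 9 of the 10 *PCDHB* members with a RefSeq promoter and in 0 of 13 *PCDHG* members, against 141 of 27305 genes (0.516%). In the 10th, *PCDHB8*, it begins 2 bases before the start and runs across it. Counted from the RefSeq start, the first base of the match in these 9 lay between 43 bases (*PCDHB10* and *PCDHB13*) and 76 bases (*PCDHB9*) before it. The printed stretches of *PCDHB12* and *PCDHB9* were cut to 108 and 96 bases and end before that start. Their match thus lies nearer to the last printed base, and the range depends on where the start is set. The 9 members with the match were 6 called lower and 3 not called (*PCDHB2*, *PCDHB7* and *PCDHB10*), and *PCDHB11* was not searched. The match is a description of the letters only.

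Of the 11 tested *PCDHB* genes, 8 were called lower (72.7%), against 18.3% of all tested genes. The other 3 were not called, none was called higher, and the median log2 fold change was -0.85. *PCDHB14* had 2.996, 3.08 and 3.50 CPM in IGROV1Res, against 6.37, 8.26 and 7.36 CPM in IGROV1Sen. Its groups stood far apart, and it fell by 1.20 on the log2 scale (SE 0.18, edgeR adjusted p = 0.000987). *PCDHB16* had 4.75, 3.78 and 3.78 CPM in IGROV1Res, against 8.26, 8.72 and 8.90 CPM in IGROV1Sen, and fell by 1.07 (SE 0.17, edgeR adjusted p = 0.00108). Of its exon length, 16.3% is shared with a gene on the opposite strand and 8.64% with genes on the same strand. *PCDHB13* had 13.2, 11.1 and 13.7 CPM in IGROV1Res, against 19.9, 25.04 and 23.5 CPM in IGROV1Sen, and fell by 0.85 (SE 0.14, edgeR adjusted p = 0.00120). These 3 genes show the same picture at different levels, with each IGROV1Res library below each IGROV1Sen library.

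The other called *PCDHB* genes were less firm. *PCDHB11*, with 14.3 ± 1.52 CPM in IGROV1Res and 21.3 ± 3.74 CPM in IGROV1Sen, fell by 0.58 (SE 0.15, edgeR adjusted p = 0.0173). *PCDHB12*, at 0.95, 0.42 and 0.77 CPM in IGROV1Res, against 1.18, 2.05 and 1.61 CPM in IGROV1Sen, fell by 1.18 (SE 0.37, edgeR adjusted p = 0.0334). *PCDHB9*, at 0.73, 0.63 and 0.28 CPM in IGROV1Res, against 0.79, 1.45 and 1.75 CPM in IGROV1Sen, fell by 1.29 (SE 0.44, edgeR adjusted p = 0.0455). *PCDHB3* and *PCDHB8* had adjusted p-values of 0.0409 and 0.0273. Of the 8 calls, 3 (*PCDHB13*, *PCDHB14* and *PCDHB16*) were left without IGROV1Res library 2, without IGROV1Sen library 2 or without IGROV1Sen library 3, and 4 were left without IGROV1Res library 3 or with DESeq2, while all 8 fold changes stayed negative in each of these settings. The not called *PCDHB2*, *PCDHB7* and *PCDHB10* had log2 fold changes of -0.52, -0.77 and -0.17.

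Summed over the 11 genes, *PCDHB* reads made up 51.9, 41.9 and 49.6 CPM in IGROV1Res, against 69.3, 87.1 and 87.6 CPM in IGROV1Sen, a mean of 47.8 ± 5.23 CPM against 81.4 ± 10.5 CPM (SD, n = 3 each). The sum over the 13 *PCDHG* genes differed less, at 33.5, 34.8 and 31.0 CPM in IGROV1Res, against 39.3, 41.3 and 43.6 CPM in IGROV1Sen.

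Of the 9 tested *PCDHG* genes, 2 were called lower (22.2%, against 18.3% of all tested genes) and 7 were not called. Their median log2 fold change was -0.01. These genes share 32.8% to 64.4% of their exon length with other genes on the same strand, so reads of the shared exons could have been split or dropped, and their values are uncertain. *PCDHGC4* (ENSG00000242419), which the authors' table lists under the symbol *PCDHGC3*, had 0.95, 0.56 and 0.28 CPM in IGROV1Res, against 2.59, 3.90 and 4.41 CPM in IGROV1Sen. It fell by 2.60 on the log2 scale (SE 0.39, edgeR adjusted p = 0.000902), and no library of a group reached those of the other. *PCDHGB7* fell by 0.84 (SE 0.26, edgeR adjusted p = 0.0319), with 3.05 ± 1.05 CPM in IGROV1Res and 5.46 ± 0.61 CPM in IGROV1Sen, and lost the call without IGROV1Res library 1 or 3 or IGROV1Sen library 2 or 3 (adjusted p = 0.0623 to 0.112). *PCDHGC3* itself, the most abundant gene of the array by CPM, had 18.1 ± 1.03 CPM in IGROV1Res and 21.6 ± 0.91 CPM in IGROV1Sen and was not called (log2 fold change -0.26, adjusted p = 0.0850).

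Genes around the arrays were mostly called higher or not called. Between chr5:140638740 and chr5:142326455, 19 tested genes that are no protocadherins included 10 called higher and 1 called lower. Over all tested genes, 17.4% were called higher and 18.3% lower. The median log2 fold change of the 19 was 0.27, against 0.14 for chromosome 5 as a whole. *TAF7*, which lies between the *PCDHB* and *PCDHG* arrays, had a log2 fold change of 0.06, and *DIAPH1*, just past the *PCDHG* array, one of 0.27. *PCDH1*, 759 kb from *PCDHB2*, was the gene of the region with the highest fold change among those tested.

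**Figure D2:**
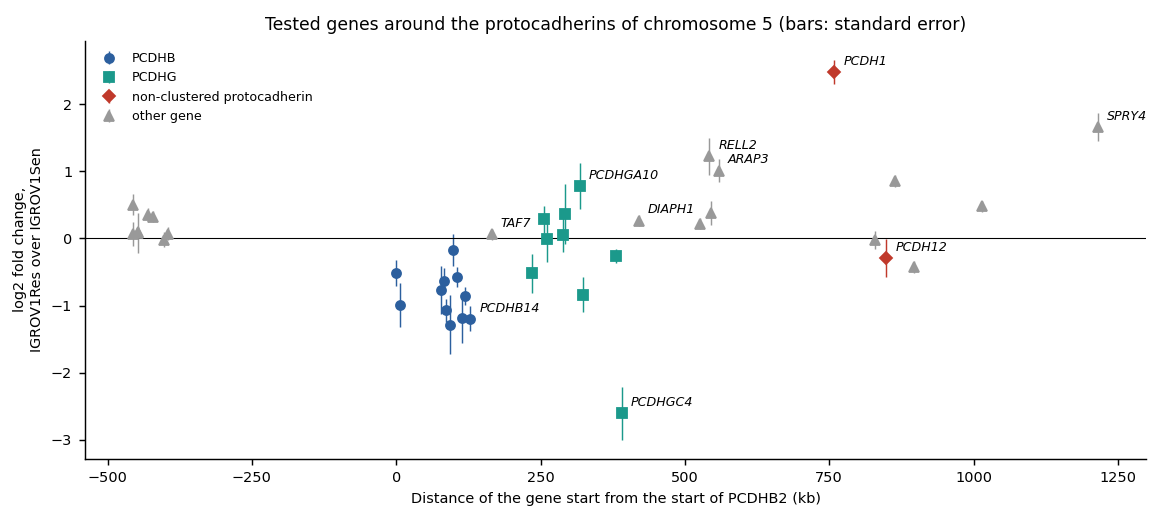
Log2 fold change of IGROV1Res over IGROV1Sen (y axis, bars of 1 standard error) against the distance of each tested gene's start from that of *PCDHB2* in kb (x axis), with symbols for *PCDHB*, *PCDHG*, non-clustered protocadherins and other genes. All 11 *PCDHB* points lie below 0, the *PCDHG* points lie on both sides of 0, and *PCDH1* stands at 2.48.

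Among the 7 FAT, Dachsous and CELSR genes, which encode very large cadherins of planar polarity and growth control, 2 were called in each direction. *FAT1* had 35.4, 44.1 and 47.3 CPM in IGROV1Res, against 20.0, 16.7 and 14.9 CPM in IGROV1Sen. Its groups did not overlap, and it rose by 1.30 on the log2 scale (SE 0.15, edgeR adjusted p = 0.000176). *CELSR2*, a planar polarity receptor with 20.1, 22.1 and 20.2 CPM in IGROV1Res, against 42.0, 46.3 and 45.1 CPM in IGROV1Sen, fell by 1.10 (SE 0.09, edgeR adjusted p = 3.23e-05). Its relative *CELSR1*, at 177 ± 9.98 CPM in IGROV1Res and 164 ± 10.04 CPM in IGROV1Sen, was not called, and *CELSR3* and *DCHS1* were not called either. Per kb of exon *CELSR1* led this role in every library, with 71.1 ± 1.23% of the sum in IGROV1Res and 68.1 ± 2.54% in IGROV1Sen.

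*FAT2* and *FAT4* were rare transcripts. *FAT2* had 61 counts over the IGROV1Res libraries and 4 over the IGROV1Sen libraries, a ratio of 15.21 (95% counting interval 5.65 to 57.6), with an edgeR adjusted p of 0.000981. *FAT4*, which binds DCHS1, had 8 counts in IGROV1Res and 48 in IGROV1Sen, and the IGROV1Sen level was 6.02 times as high (2.82 to 14.7, edgeR adjusted p = 0.00172). Intervals of this kind cover counting error only.

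Claudins set the tightness of the seal, and 8 of the 9 in the table were tested, of which 1 was called higher, 2 lower and 5 were not called. *CLDN1*, a barrier claudin (chr3:190305701-190322475), had 53.6, 57.8 and 49.7 CPM in IGROV1Res, against 130, 108 and 110 CPM in IGROV1Sen. The groups were well apart, and *CLDN1* fell by 1.11 on the log2 scale (SE 0.10, edgeR adjusted p = 4.86e-05), against a median of -0.27 over the tested genes of chromosome 3. Its neighbour *CLDN16*, 0.066 kb away and known for magnesium transport in kidney, had 9.64, 5.11 and 5.32 CPM in IGROV1Res, against 13.0, 10.4 and 7.92 CPM in IGROV1Sen, with overlap and no call (log2 fold change -0.64, adjusted p = 0.0994).

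*CLDN3*, a claudin of ovarian carcinoma (chr7:73768997-73770270), had 82.9, 76.8 and 92.8 CPM in IGROV1Res, against 98.7, 101 and 102 CPM in IGROV1Sen. It was at the edge of the test, falling by 0.25 (SE 0.09, edgeR adjusted p = 0.0479), and the call was lost in 12 of 18 other settings, among them those without IGROV1Res library 1 or 2 or IGROV1Sen library 2 or 3 (adjusted p = 0.0946 to 0.190). *CLDN4*, 29.3 kb from *CLDN3*, was rare, with 1.68, 1.19 and 1.47 CPM in IGROV1Res, against 1.49, 2.05 and 2.17 CPM in IGROV1Sen, and was not called (log2 fold change -0.40, adjusted p = 0.287). *CLDN7* had 16.7, 16.5 and 13.4 CPM in IGROV1Res, against 16.4, 23.5 and 25.4 CPM in IGROV1Sen, and the overlap came from IGROV1Sen library 1. Its log2 fold change of -0.49 missed the threshold with all libraries (edgeR adjusted p = 0.0539) and passed it with all libraries in the likelihood ratio test of edgeR (adjusted p = 0.0287) and in DESeq2 (adjusted p = 0.0393). It also passed in the quasi-likelihood test without IGROV1Sen library 1 (-0.65, adjusted p = 0.00353) and without both that library and IGROV1Res library 3 (-0.55, adjusted p = 0.00563).

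*CLDN12*, a claudin without the usual tail for scaffold binding, was the claudin called higher, at 43.3, 41.0 and 35.4 CPM in IGROV1Res, against 29.3, 30.5 and 30.7 CPM in IGROV1Sen. It rose by 0.41 (SE 0.10, edgeR adjusted p = 0.0119), and 16.3% of its exon length is shared with other genes on the same strand. *CLDN15* and *CLDN23* overlapped between groups and were not called. *CLDN11*, known from myelin and testis, had 28 counts over the IGROV1Res libraries and 0 over the IGROV1Sen libraries. Set against 3 counts over the IGROV1Sen group, the IGROV1Res level was 9.31 times as high, a ratio that leaves out the counting error of the 28. *CLDN11* was too low to be tested, and 18.3% of its exon length is shared with another gene on the same strand. Per kb of exon, the claudins summed to 98.3 ± 4.72 CPM per kb in IGROV1Res and 131 ± 0.83 CPM per kb in IGROV1Sen. *CLDN3* led in every library with 67.2 ± 3.95% in IGROV1Res and 60.2 ± 0.67% in IGROV1Sen, while *CLDN1* took 14.97 ± 1.85% in IGROV1Res and 24.2 ± 2.64% in IGROV1Sen.

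**Figure D3:**
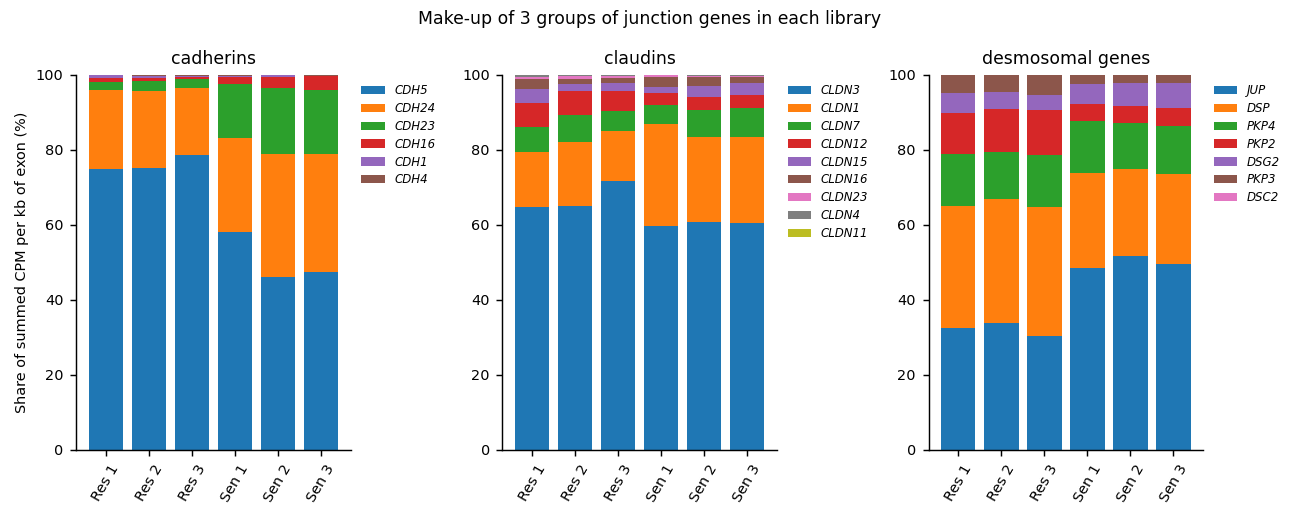
Share of each gene in the summed CPM per kb of exon of the cadherins, claudins and desmosomal genes (y axis, percent) in each library (x axis, IGROV1Res libraries first). *CDH5* takes 74.8% to 78.6% of the sum of the 6 cadherins described here in IGROV1Res and 46.0% to 58.0% in IGROV1Sen. *JUP* takes 30.3% to 33.8% of the desmosomal sum in IGROV1Res and 48.4% to 51.6% in IGROV1Sen.

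The other membrane proteins of tight junctions were split. *OCLN*, which encodes occludin, had 53.5, 46.8 and 47.7 CPM in IGROV1Res, against 39.6, 34.5 and 30.8 CPM in IGROV1Sen, without overlap, and rose by 0.50 on the log2 scale (SE 0.11, edgeR adjusted p = 0.00719). *MARVELD3*, a relative of occludin, had 1.75, 2.10 and 2.52 CPM in IGROV1Res, against 0.16, 0.26 and 0 CPM in IGROV1Sen. Its 90 counts in IGROV1Res and 6 in IGROV1Sen give a ratio of 14.96 (6.61 to 41.8, edgeR adjusted p = 0.000596), and 18.1% of its exon length is shared with genes on the opposite strand. *MARVELD2*, or tricellulin, the occludin relative of tricellular corners, had 8 counts in IGROV1Res and 28 in IGROV1Sen and was not tested. *F11R*, the adhesion molecule JAM-A, had 66.6, 69.2 and 65.0 CPM in IGROV1Res, against 90.8, 89.1 and 83.5 CPM in IGROV1Sen, and fell by 0.39 (SE 0.08, edgeR adjusted p = 0.00366), with 36.6% of its exon length shared with another gene on the same strand. *JAM3* was not called, at 2.53 ± 0.67 CPM in IGROV1Res and 3.54 ± 0.14 CPM in IGROV1Sen.

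None of the 4 tight junction scaffolds described here was called higher and 1 was called lower. *TJP1*, which encodes ZO-1, had 141, 157 and 146 CPM in IGROV1Res, against 160, 152 and 153 CPM in IGROV1Sen. These values overlapped, and the 95% interval of its log2 fold change of -0.07 ran from -0.24 to 0.11 (edgeR adjusted p = 0.535). *CGNL1*, or paracingulin, had 4.75, 4.83 and 5.11 CPM in IGROV1Res, against 12.2, 16.1 and 20.0 CPM in IGROV1Sen, and fell by 1.72 (SE 0.20, edgeR adjusted p = 0.000199). *CGN*, or cingulin, the closest relative of *CGNL1*, had a log2 fold change of 0.34 and was not called (adjusted p = 0.147), and *TJP3* was not called. Per kb of exon *TJP1* made up 76.5 ± 1.92% of the sum of these 4 in IGROV1Res and 71.5 ± 4.06% in IGROV1Sen.

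Nectins and afadin were abundant and none was called. *NECTIN1*, *NECTIN2*, *NECTIN3* and *AFDN* had means of 138 to 171 CPM in IGROV1Res and of 131 to 177 CPM in IGROV1Sen, and their log2 fold changes lay between -0.19 and 0.14. The widest of their 95% intervals, that of *AFDN*, ran from -0.40 to 0.30.

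Among the 5 polarity genes chosen by the rule, *CRB3* was called. It encodes the Crumbs protein of the apical membrane (chr19:6463777-6467221) and had 5.26, 4.48 and 3.22 CPM in IGROV1Res, against 1.10, 1.45 and 1.40 CPM in IGROV1Sen. Its lowest IGROV1Res value was above its highest IGROV1Sen value, and it rose by 1.70 on the log2 scale (SE 0.27, edgeR adjusted p = 0.00112). *PARD3* and the 3 *PARD6* genes, whose products form the PAR complex, had log2 fold changes from -0.24 to 0.30 and were not called.

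Desmosomal genes showed calls in both directions within 1 structure, 3 higher, 2 lower and 1 not called. *DSP*, which encodes desmoplakin, the link to intermediate filaments, had 371, 402 and 376 CPM in IGROV1Res, against 298, 284 and 290 CPM in IGROV1Sen, and rose by 0.40 on the log2 scale (SE 0.07, edgeR adjusted p = 0.00302). *PKP2*, a plakophilin that joins desmoplakin to the membrane, had 86.4, 97.4 and 91.9 CPM in IGROV1Res, against 36.8, 40.4 and 41.0 CPM in IGROV1Sen. The replicates were tight, and *PKP2* rose by 1.22 (SE 0.09, edgeR adjusted p = 9.89e-06). *PKP3*, with 20.9, 21.7 and 22.4 CPM in IGROV1Res, against 10.5, 10.2 and 10.2 CPM in IGROV1Sen, rose by 1.07 (SE 0.11, edgeR adjusted p = 9.81e-05). *PKP4* stood at 146 ± 4.04 CPM in IGROV1Res and 146 ± 6.86 CPM in IGROV1Sen, with an interval of its log2 fold change from -0.17 to 0.17.

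*JUP*, which encodes plakoglobin, a relative of beta-catenin in desmosomes and adherens junctions, had 181, 202 and 163 CPM in IGROV1Res, against 277, 310 and 291 CPM in IGROV1Sen. It fell by 0.68 (SE 0.10, edgeR adjusted p = 0.000590), and no IGROV1Res library came near the lowest IGROV1Sen library. *DSG2*, a desmosomal cadherin, had 37.9, 33.5 and 27.7 CPM in IGROV1Res, against 39.0, 45.7 and 48.6 CPM in IGROV1Sen, with a small gap between the groups. It fell by 0.43 (SE 0.13, edgeR adjusted p = 0.0308), and the call was lost in 6 of 18 other settings, among them those without IGROV1Res library 2 or 3 or IGROV1Sen library 2 or 3 (adjusted p = 0.0858 to 0.118). *DSC2*, its partner cadherin, had 11 counts in IGROV1Res and 13 in IGROV1Sen and was not tested. In the summed CPM per kb of the desmosomal genes, which was 114 ± 6.07 in IGROV1Res and 119 ± 2.64 in IGROV1Sen, *JUP* took 32.2 ± 1.77% in IGROV1Res and 49.8 ± 1.68% in IGROV1Sen. *DSP* took 33.3 ± 0.93% in IGROV1Res and 24.3 ± 1.11% in IGROV1Sen, and *PKP2* took 11.4 ± 0.58% in IGROV1Res and 4.71 ± 0.19% in IGROV1Sen, so that *DSP* and *JUP* were close in IGROV1Res while *JUP* led in IGROV1Sen.

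Both connexins described here were called higher. *GJA1*, which encodes connexin 43, the most widespread gap junction protein, had 137, 166 and 160 CPM in IGROV1Res, against 86.7, 66.5 and 66.7 CPM in IGROV1Sen. The groups did not overlap, and *GJA1* rose by 1.08 on the log2 scale (SE 0.12, edgeR adjusted p = 0.000197). *GJB1*, or connexin 32 of liver and myelin, had 4.02, 3.36 and 3.15 CPM in IGROV1Res, against 1.26, 0.86 and 0.77 CPM in IGROV1Sen, and rose by 1.87 (SE 0.27, edgeR adjusted p = 0.000734). Per kb of exon both summed to 46.7 ± 4.32 CPM per kb in IGROV1Res and 21.9 ± 3.50 CPM per kb in IGROV1Sen, and *GJA1* made up 96.9 ± 0.69% of that sum in IGROV1Res and 98.2 ± 0.20% in IGROV1Sen.

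*EPCAM*, the epithelial adhesion molecule used as a carcinoma marker, was rare in both groups. It had 3.07, 1.68 and 1.05 CPM in IGROV1Res, against 0.55, 0.73 and 0.91 CPM in IGROV1Sen, so that IGROV1Res library 3 was only just above IGROV1Sen library 3. It rose by 1.38 on the log2 scale (SE 0.44, edgeR adjusted p = 0.0351), but the fold change was 0.89 without IGROV1Res library 1 (adjusted p = 0.112), and the call was also lost without IGROV1Res library 2 or without any single IGROV1Sen library (adjusted p = 0.0622 to 0.0950).

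**Figure D4:**
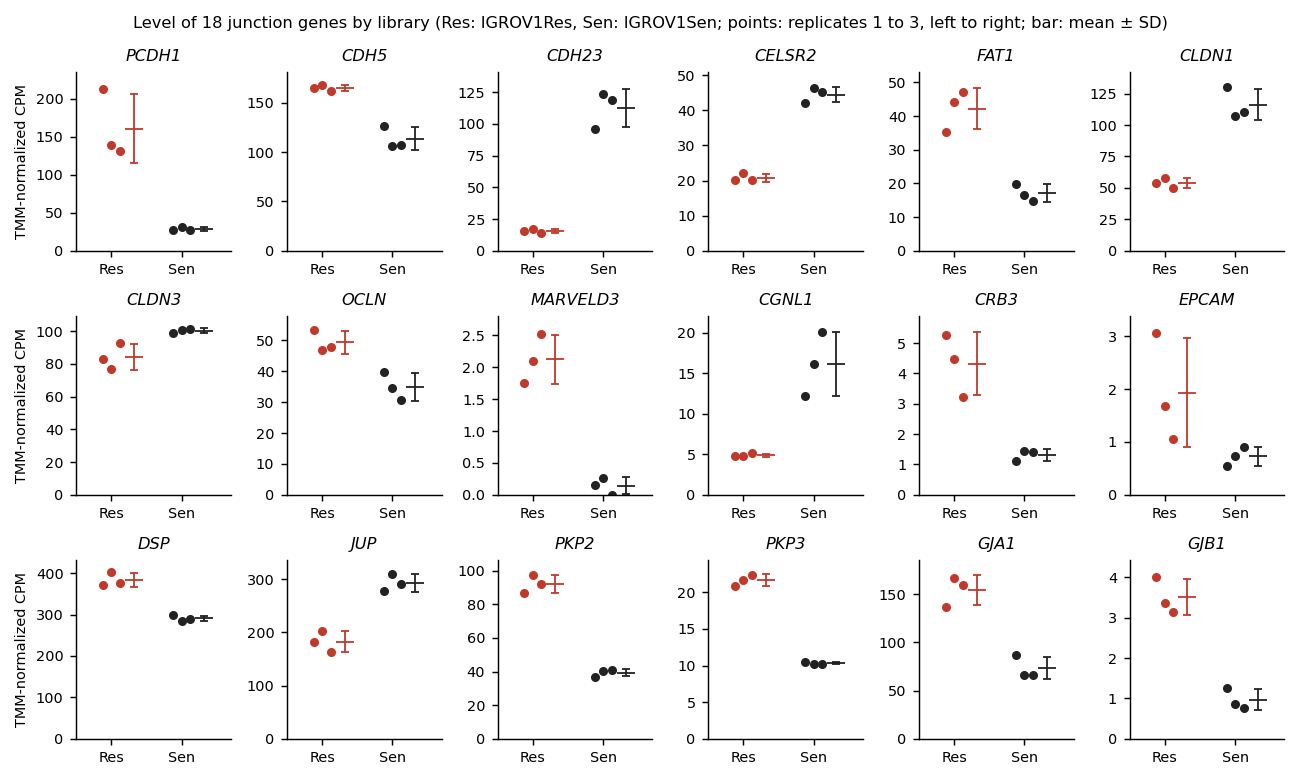
TMM-normalized CPM (y axis) of 18 junction genes in the IGROV1Res and IGROV1Sen libraries (x axis), with points for replicates 1 to 3 and a bar for the mean ± SD. *CDH23*, *CELSR2*, *CLDN1*, *CGNL1* and *JUP* are lower in IGROV1Res without overlap, *PCDH1*, *FAT1*, *PKP2*, *PKP3* and *GJA1* are higher without overlap, and *CLDN3* and *EPCAM* have groups that nearly touch.

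The proteins that junctions depend on were looked up by role outside the symbol rule, in lists written with earlier results of these data known. Of the 7 catenins and adaptors tested, none was called higher and 2 were called lower (28.6%), against 17.4% and 18.3% of all tested genes. *CTNND2*, or delta-catenin, a neural relative of p120-catenin, had 1 count over the IGROV1Res libraries and 412 over the IGROV1Sen libraries, a level 413 times as high in IGROV1Sen (95% counting interval 73.7 to 16355). It passed the filter on low counts only through IGROV1Sen and could hardly have failed to be called. *CTNNB1*, which encodes beta-catenin, had 343 ± 10.2 CPM in IGROV1Res and 410 ± 15.1 CPM in IGROV1Sen, with a log2 fold change of -0.26 (SE 0.08, edgeR adjusted p = 0.0246) beside a median of -0.27 over the tested genes of its chromosome, 3. That call was lost without IGROV1Res library 2 or IGROV1Sen library 2 or 3 (adjusted p = 0.0589 to 0.107). *CTNNA1*, or alpha-catenin, which binds beta-catenin, and *CTNND1*, or p120-catenin, which binds E-cadherin, had log2 fold changes of 0.17 and 0.13 and were not called, and *VCL* (vinculin) had one of 0.29 (adjusted p = 0.0547).

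Of 15 further genes of polarity complexes, 2 were called in each direction (13.3% each), against 17.4% higher and 18.3% lower over all tested genes. *SCRIB* was higher at 321 ± 27.8 CPM in IGROV1Res and 247 ± 2.31 CPM in IGROV1Sen, with a log2 fold change of 0.38 (SE 0.08, edgeR adjusted p = 0.00708) beside a median of 0.39 over the tested genes of its chromosome, 8. *DLG5* was lower at 47.3 ± 2.22 CPM in IGROV1Res and 76.8 ± 4.11 CPM in IGROV1Sen (log2 fold change -0.70, SE 0.08, edgeR adjusted p = 0.000219). *AMOT*, which encodes angiomotin, rose by 0.999 on the log2 scale (edgeR adjusted p = 0.0268), a call lost without IGROV1Res library 1 or 2 or IGROV1Sen library 3 (adjusted p = 0.0609 to 0.0967). *PRKCZ*, an atypical protein kinase C, fell by 0.38 (edgeR adjusted p = 0.0130), and its call was lost without IGROV1Res library 2 or IGROV1Sen library 3 (adjusted p = 0.0644 and 0.0716).

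Transcription and splicing factors that act on epithelial genes were read next to the junction genes. *ZEB1*, a repressor of *CDH1* and other epithelial genes, had 34.3, 35.7 and 33.6 CPM in IGROV1Res, against 75.8, 79.6 and 77.6 CPM in IGROV1Sen. The spread within groups was small, and *ZEB1* fell by 1.17 on the log2 scale (SE 0.08, edgeR adjusted p = 6.67e-06). *SNAI1*, another repressor of *CDH1*, had 6.14, 3.50 and 4.69 CPM in IGROV1Res, against 3.38, 2.31 and 2.38 CPM in IGROV1Sen, and rose by 0.83 (SE 0.27, edgeR adjusted p = 0.0368), a call that was lost without IGROV1Res library 1 or 3 or IGROV1Sen library 2 or 3 (adjusted p = 0.0757 to 0.128). *TCF3* fell by 0.47 (SE 0.07, edgeR adjusted p = 0.00108), and *GSC* and *SNAI3* were not called.

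Factors that favour the epithelial state also went both ways, 3 higher, 3 lower and 2 not called among 8. The share was 37.5% in each direction, against 17.4% higher and 18.3% lower over all tested genes. *ESRP2*, an epithelial splicing regulator, had 26.7, 24.6 and 21.5 CPM in IGROV1Res, against 11.1, 9.51 and 9.67 CPM in IGROV1Sen, and rose by 1.27 (SE 0.13, edgeR adjusted p = 0.000102). *OVOL2*, a repressor of *ZEB1*, had 5.11, 3.22 and 2.59 CPM in IGROV1Res, against 0.31, 0.33 and 0.35 CPM in IGROV1Sen, and rose by 3.42 (SE 0.39, edgeR adjusted p = 0.000182). It passed the filter on low counts only through IGROV1Res and could hardly have failed to differ. *GRHL3*, a Grainyhead factor of barrier formation, had 5.48, 2.73 and 2.59 CPM in IGROV1Res, against 0.86, 0.66 and 0.56 CPM in IGROV1Sen, and rose by 2.36 (SE 0.39, edgeR adjusted p = 0.00146). In contrast, *ELF3* fell by 1.02 (SE 0.14, edgeR adjusted p = 0.000461), *KLF5* by 0.57 (SE 0.10, adjusted p = 0.00209) and *EHF* by 1.14 (SE 0.31, adjusted p = 0.0185), all with non-overlapping libraries. The *EHF* call was lost without IGROV1Res library 3 or IGROV1Sen library 2 or 3 (adjusted p = 0.0571 to 0.0668). *GRHL1*, at 5.19 ± 0.65 CPM in IGROV1Res and 5.16 ± 0.56 CPM in IGROV1Sen, and *KLF4* were not called.

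**Figure D5:**
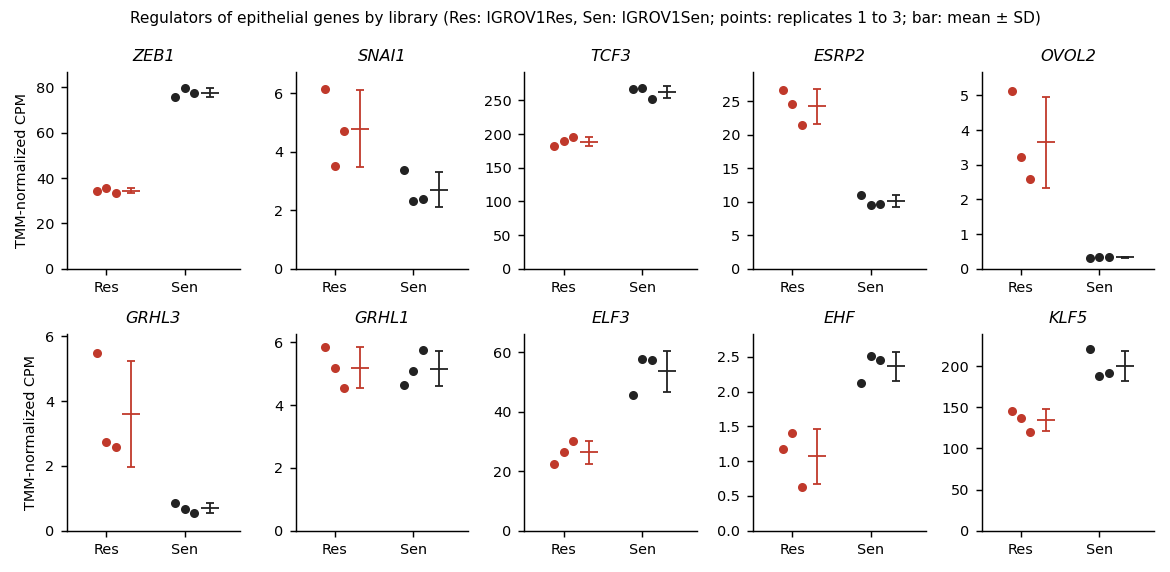
TMM-normalized CPM (y axis) of 10 regulators of epithelial genes in the IGROV1Res and IGROV1Sen libraries (x axis), with points for replicates 1 to 3 and a bar for the mean ± SD. *ZEB1*, *TCF3*, *ELF3*, *EHF* and *KLF5* are lower in IGROV1Res, *SNAI1*, *ESRP2*, *OVOL2* and *GRHL3* are higher, and *GRHL1* overlaps.

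The letters CAGGTG, a site that SNAI and ZEB proteins can bind, were searched on both strands (CACCTG on the other) in the 250 bases before the start of the 60 junction genes with a RefSeq promoter. They occurred in 14 of them (23.3%), against 5635 of 27305 genes (20.6%). The match was present in 4 of 10 genes called higher, 3 of 17 called lower, 5 of 26 not called and 2 of 7 not tested, so that the share of junction genes was near that of all genes.

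Of 11 tested genes in the list of epithelial surface and protease genes, 6 were called higher (54.5%) and 1 lower (9.09%), against 17.4% and 18.3% of all tested genes. The list was written with earlier results of these data known, so these shares are a description only. Among the 6 are *MYO1D* and *VASP*, which encode neither surface proteins nor proteases. *MYO1D*, an unconventional myosin, had 59.3, 75.4 and 77.1 CPM in IGROV1Res, against 7.31, 6.67 and 6.94 CPM in IGROV1Sen, and rose by 3.34 (SE 0.13, edgeR adjusted p = 4.18e-07). *SPINT1*, an inhibitor of epithelial serine proteases, had 25.4, 13.3 and 12.1 CPM in IGROV1Res, against 2.52, 3.11 and 3.50 CPM in IGROV1Sen, and rose by 2.47 (SE 0.31, edgeR adjusted p = 0.000322). *LSR*, which marks the tricellular junction, rose by 0.55 (SE 0.08, edgeR adjusted p = 0.000694), at 96.3 ± 1.28 CPM in IGROV1Res and 65.7 ± 4.34 CPM in IGROV1Sen. *CXADR*, the coxsackievirus and adenovirus receptor of tight junctions, fell by 1.03 (SE 0.10, edgeR adjusted p = 9.17e-05), at 24.6 ± 1.48 CPM in IGROV1Res and 50.1 ± 5.03 CPM in IGROV1Sen.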

How the data were processed

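RNA of 3 IGROV1Res and 3 IGROV1Sen libraries was analysed, grouped by the labelled sensitivity to GDC0032. The authors deposited raw read counts per Ensembl gene from single-end reads, after a quality filter with no stated rule, and the submitters' processing notes name edgeR and genome build hg18. The aligner, the counting tool and the use of strand are not given in the sources used here. A second table that the authors deposited holds their log2 fold changes, average log2 CPM, likelihood ratio (a score) and p-values from edgeR. It was used for gene symbols only.

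The analysis ran in edgeR 4.0.16 under R 4.3.3 (filterByExpr with a minimum count of 10 and a minimum total of 15, TMM, glmQLFit and glmQLFTest with condition as the only term, Benjamini-Hochberg adjustment over 13791 genes). The standard error is the size of the log2 fold change divided by the square root of F. Rare genes are given as ratios of summed counts with exact 95% intervals. Coordinates and exon lengths came from GENCODE 29 on GRCh38, where 14611 of 14646 identifiers were found, and promoters from RefSeq (GRCh38.p14), where 60 of 78 genes matched. Coordinates are thus not those of the authors' build.

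The steps were tested on simulated data. The genes and lists were chosen with earlier results of these data known. Full values are given for a fixed list of junction genes and for those called with a log2 change of 1 or more in size and with 1 CPM or more in their higher group, and other genes as examples of their role by smallest adjusted p or end of range. *TAF7*, *DIAPH1* and the members given as not called were added for position or completeness. Some genes that match the choice by symbol are not reported here and enter no count of junction genes. Replicate numbers were not taken as pairs, since same-numbered libraries did not deviate together over all tested genes. The alternatives were DESeq2 1.42.0, a likelihood ratio test, other scaling, filters and thresholds, a replicate block, and leaving out libraries, mitochondrially encoded genes or chromosome 8.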

Additional observations from a re-analysis of the deposited data

How the results depend on the processing

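Calls of higher expression numbered 15 and stayed between 11 and 16 in the other settings, among them 14 to 15 when single libraries were left out. Calls of lower expression numbered 22 and were more open to the choice of libraries. Leaving out single libraries gave 14 to 25, with 14 without IGROV1Sen library 2 or 3, 15 without IGROV1Res library 2 and 16 without IGROV1Res library 3. Summing IGROV1Sen libraries 2 and 3 into 1 gave 14, an adjusted p under 0.01 gave 14, and a log2 change of 1 or more in size gave 12. Leaving the clustered protocadherins out gave 12 lower of 51 tested (23.5%), beside 15 higher (29.4%), so that lower calls no longer outnumbered higher ones. DESeq2 gave 15 higher and 18 lower. With the replicate block the counts were 13 and 16. The correlations of same-numbered libraries over all tested genes were -0.43, 0.10 and -0.40, so these did not deviate together as a whole. Such correlations do not show whether a smaller effect went with the replicate number. Differently numbered libraries ran from -0.45 to 0.55. The highest was that of IGROV1Res library 3 with IGROV1Sen library 1, which had the lowest mitochondrial shares, and its cause was not tested. Of the 37 called genes, 27 kept the call in each of the 17 or 18 other settings that gave a value, 10 lost it at least once (*EPCAM*, *CLDN3*, *CLDN12*, *DSG2*, *PCDHB3*, *PCDHB8*, *PCDHB9*, *PCDHB11*, *PCDHB12* and *PCDHGB7*) and 0 changed sign; the cause was not tested. *CDH1*, *CLDN4* and *EPCAM*, near 1 CPM, rest on few reads, and the part of depth in their results was not tested.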
